A study of Mus musculus with 5 samples.

Results

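The genes described are 10 cytokines that myeloid cells can make: Il1a, Il1b, Il4, Il6, Il10, Il13, Il15, Il16, Il18 and Tnf. They were chosen by symbol from the 27526 genes of the authors' normalized count table, and all 10 were found there. The samples were mouse leukaemia cells described as positive for the receptor Kit, in a model driven by AML1-ETO9a, a shortened form of the RUNX1-RUNX1T1 fusion of human acute myeloid leukaemia. All 5 libraries carry that fusion by label. Of these, 2 were labelled Plcg1 +/+ (called wild-type 1 and 3 here, after their sample numbers), and 3 were labelled Plcg1 -/- by conditional deletion (deleted 2, 4 and 6). Plcg1 encodes phospholipase C-γ1, which produces the second messengers diacylglycerol and inositol trisphosphate. The labels name no Cre driver, no age and no treatment, and do not say whether libraries came from separate mice, so p-values measure no more than how far these samples differ, and that spread may be technical. Libraries held between 37306507 and 57133771 gene counts.

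Cytokines of this group fall into a few families. TNF, IL-1α and IL-1β are alarm signals that act through NF-κB, and IL-6 acts through a shared receptor chain, gp130, and STAT3. IL-18 and IL-1β are made as precursors that caspase-1 cuts in the inflammasome, whereas the IL-1α precursor is active uncut. IL-15 supports natural killer and memory T cells, and IL-16 is cut from a large precursor and binds CD4. IL-4 and IL-13 signal through STAT6 and are products of mast cells, basophils and helper T cells, and IL-10 damps inflammation. Calcium and NFAT, which act below phospholipase C-γ, are textbook inducers of Il4, Il13 and Tnf in mast cells and T cells.

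The labels were checked against the data before the groups were compared. Plcg1 stood at 22.1 and 33.99 CPM (counts divided by the scaled library size, in the usual CPM unit) in wild-type 1 and 3, and at 52.998, 26.9 and 37.1 CPM in deleted 2, 4 and 6. Total counts per gene include exons outside a deleted part, so this does not check the deletion. Kit was at 26.8 and 32.1 CPM for the wild-type pair, at 672 and 304 CPM for deleted 2 and 4, and at 3.08 CPM in deleted 6. Runx1t1 was at 0.121 and 0.234 CPM for the wild-type pair and at 106, 74.0 and 13.5 CPM in the deleted ones, and counts cannot tell a fusion from the mouse gene. Deleted 6 differed from every other library by a chi-square per gene of 826 to 1600, against 50.2 to 369 between the other 4. Many results below are therefore given with and without deleted 6. The others are from all 5 libraries unless stated, and group names refer to the labels.

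Il6 and Il4 transcripts were high in deleted 2 and 4 and close to absent in the wild-type libraries. In deleted 6 Il6 was close to absent too, and Il4 was low. Deleted 6 held the most Il1a, Il15 and Il18 and the least Il1b, Il16 and Il6 of any library, 3 of the 8 tested members each way, near its share over all tested genes (highest in 36.2%, lowest in 37.9%). Tnf was present at a like level in 4 of the 5 libraries. Across all 5 libraries edgeR's quasi-likelihood test called none of the 8 testable members, as it called 0 of 16120 genes (0% background), with 1 member, Il4, at an unadjusted p under 0.05 (background 9.44% higher and 5.42% lower). Without deleted 6 it called Il4 and Il6 higher, where 7.89% of all genes were called higher and 5.07% lower. DESeq2 called the same 2 members higher across all 5 libraries (5.75% of genes higher, 3.05% lower), and limma-voom with sample weights called Il4 (7.63% and 5.87%). With no filter on low counts edgeR called 0 members and 0.919% of genes (0.539% higher). With deleted 6 left out, DESeq2 called Il4 and Il6 (10.9% of genes higher, 7.66% lower), as did limma-voom (7.53% and 4.99%). Il10 and Il13 had too few counts to pass the filter. Il4 reached the filter's cutoff of 0.19 CPM (before scaling) only in the 3 deleted libraries, where it is higher, so the share of tested members that differ carries no weight. Il6 reached it in both wild-type libraries and in deleted 2 and 4.

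**Figure D1:**
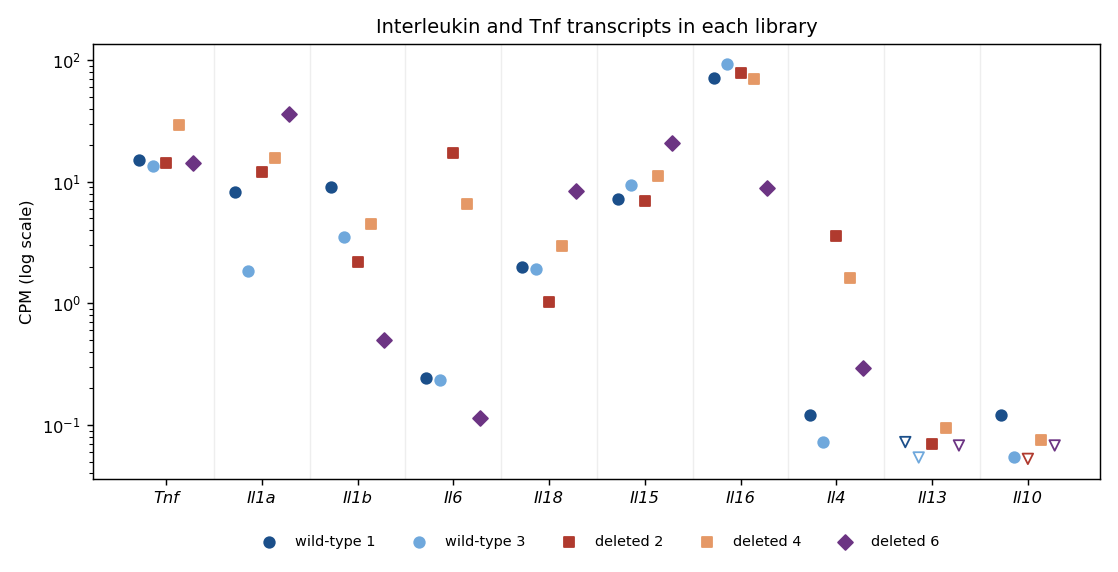
CPM of the 10 cytokine genes on a log scale, 1 point per library (circles wild-type, squares deleted 2 and 4, diamonds deleted 6); open triangles mark libraries with 0 counts, drawn at the level of 3 counts. Il6 and Il4 stand high in deleted 2 and 4 only, at 17.2 and 6.53 CPM and at 3.57 and 1.62 CPM, while Il1a, Il15 and Il18 are highest in deleted 6.

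In 2 of the 8 tested members, Il1a and Il4, all 3 deleted libraries exceeded the wild-type pair, and in none were all 3 below it. All tested genes gave 22.4% above and 23.7% below (46.1% in either direction), so 2 of 8 is near the background. The median log2 fold change of the tested members, deleted minus wild-type, was 0.86, against 0.01 over all tested genes. Without deleted 6 the medians were 0.38 and -0.01, and 3 members lay above and 0 below (29.6% and 29.0% of all genes, 58.6% together). The members spread widely between libraries. The gap between the highest and the lowest library was 6.81 on the log2 CPM scale for Il6, wider than in 98.4% of tested genes, and 5.01 for Il4, wider than in 94.9%. It was 4.25 for Il1a, 4.09 for Il1b, 3.38 for Il16 and 2.97 for Il18. Il15 and Tnf spread by 1.58 and 1.115, near the median gene at 1.25.

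Compared per kilobase of exon, so that genes of unequal length can be ranked, Il16 and Tnf led in the wild-type libraries at 10.5 ± 1.98 and 8.75 ± 0.669 CPM per kb (SD, n = 2). Their values overlapped, and both lay above all other members. Il15, Il1b, Il1a and Il18 followed at 3.67, 3.30, 2.54 and 1.89 CPM per kb, and each overlapped the next. Il6, Il4 and Il10 came far below, at 0.0979, 0.0785 and 0.0666 CPM per kb, and Il13 had no counts. Under the deleted label the order was Tnf (11.8 ± 5.37), Il1a (10.8 ± 6.58), Il16 (6.67 ± 4.82), Il15 (5.75 ± 3.16), Il18 (4.00 ± 3.68), Il6 (3.27 ± 3.54), Il4 (1.49 ± 1.34) and Il1b (1.25 ± 1.04 CPM per kb; SD, n = 3), and every neighbour in that order overlapped. Il13 and Il10 were last, at 0.0455 and 0.0192 CPM per kb.

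The mixture of cytokine transcripts differed between libraries more than its sum did. The 10 members summed to 32.6 and 29.2 CPM per kb in wild-type 1 and 3 and to 39.9, 49.1 and 46.0 CPM per kb in deleted 2, 4 and 6. Il16 made up 27.9% and 40.7% of that sum in the wild-type libraries, 24.9% and 18.2% in deleted 2 and 4, and 2.47% in deleted 6. Il1a made up 12.7% and 3.22%, then 15.2% and 16.1%, and 39.8% in deleted 6. Il6 and Il4 together were a visible part only in deleted 2, at 17.7% and 7.30%, and in deleted 4, at 5.48% and 2.69%. These shares describe single libraries and have no test.

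**Figure D2:**
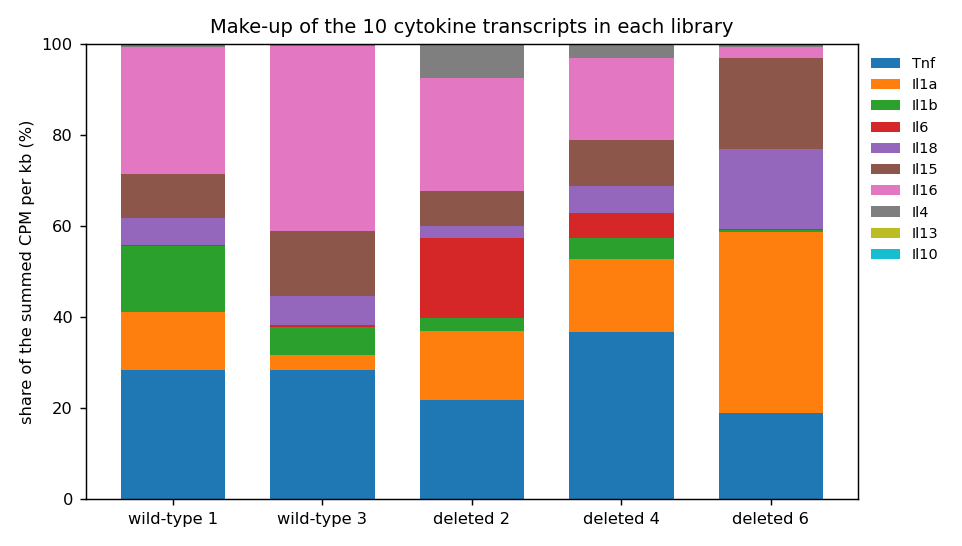
Share of each cytokine in the summed CPM per kb of the 10 genes, 1 bar per library. Tnf holds 18.8% to 36.6% in every library, Il16 shrinks to 2.47% in deleted 6, and Il1a grows to 39.8% there.

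Tnf, the tumour necrosis factor of activated macrophages and mast cells (chromosome 17, 35199381 to 35202007, minus strand; all coordinates GENCODE M21 on GRCm38, the build also called mm10), had 627 and 753 counts for the wild-type pair, which is 15.1 and 13.6 CPM. It had 14.2, 29.4 and 14.2 CPM in deleted 2, 4 and 6. Deleted 4 alone stood high, and the other 4 libraries lay within 13.6 to 15.1 CPM. On average Tnf was at 14.3 ± 1.10 CPM (SD, n = 2) under the wild-type label and 19.3 ± 8.80 CPM (SD, n = 3) under the deleted one, a log2 fold change of 0.43 ± 0.41 (SE; adjusted p = 0.611 by edgeR). Without deleted 4 it was -0.0099.

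Il1a, which encodes the IL-1α alarm signal (chromosome 2, 129299610 to 129309972, minus strand), had 339 and 103 counts in wild-type 1 and 3, or 8.17 and 1.86 CPM. It reached 12.0, 15.6 and 36.1 CPM in deleted 2, 4 and 6, so all 3 deleted libraries lay above both wild-type libraries, and deleted 6 was highest. The wild-type libraries differed from each other by 4.404-fold, a gap that only 1.99% of tested genes matched. The log2 fold change was 2.08 ± 0.84 (SE; adjusted p = 0.342) and 1.48 ± 0.61 without deleted 6 (adjusted p = 0.170). In sequencing lane 4, read from the file names and the only lane with both labels, it was 2.90 ± 0.34 (adjusted p = 0.0423; background 1.26% higher and 0.779% lower, 2.03% together). The lone wild-type library there is wild-type 3, the lower of the pair, and the fit assumes that it varies like the deleted ones. The exons of Il1a share 222 bases with Gm14023 on the opposite strand, and the kit does not mark strand.

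Il1b, which encodes the secreted IL-1β, lies 54.6 kb from Il1a (chromosome 2, 129364570 to 129371139, minus strand) and had a fold change of the opposite sign. It stood at 9.09 and 3.49 CPM in wild-type 1 and 3, at 2.19 and 4.45 CPM for deleted 2 and 4, and at 0.497 CPM, from 22 counts, in deleted 6. The groups overlapped, since deleted 4 lay above wild-type 3. The log2 fold change was -1.40 ± 0.93 (SE; adjusted p = 0.495), and -0.91 ± 0.53 without deleted 6 (adjusted p = 0.331). In lane 4 alone it was -0.06. Here too wild-type 1 was higher than wild-type 3, by 2.60-fold, which 5.61% of tested genes matched. Deleted 4 was above deleted 2 for both genes. The ratio of Il1a to Il1b, per kb of exon, was 0.869 and 0.513 in the wild-type libraries, 5.29 and 3.38 in deleted 2 and 4, and 70.1 in deleted 6. All 3 deleted libraries lay above both wild-type libraries, but an exact two-sided permutation test of the log2 ratio over the 10 ways to split 5 libraries gave p = 0.2, and no split of this size can give less than 0.1. The ratio was chosen after the values were seen.

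Il6, the cytokine that drives the acute phase response (chromosome 5, 30013114 to 30019981, plus strand), had the widest spread of all members. It had 10 and 13 counts for the wild-type pair (0.241 and 0.234 CPM), 979 and 346 counts in deleted 2 and 4 (17.2 and 6.53 CPM) and 5 counts in deleted 6 (0.113 CPM). Deleted 2 and 4 lay far above both wild-type libraries, and deleted 6 lay below them, so the groups overlapped. Across all 5 libraries this gave a log2 fold change of 5.05 ± 2.00 (SE; adjusted p = 0.337 by edgeR). Without deleted 6, Il6 rose by 5.64 ± 0.58 (adjusted p = 0.00261). DESeq2 called it across all 5 libraries as well (5.05 ± 1.498, adjusted p = 0.0130), and limma-voom did not (4.87 ± 1.37, adjusted p = 0.0662).

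Il4, the cytokine of mast cells, basophils and type 2 helper T cells (chromosome 11, 53602982 to 53618669, minus strand), had a similar shape at a lower level. It had 5 and 4 counts for the wild-type pair (0.121 and 0.0721 CPM), 204 and 86 counts in deleted 2 and 4 (3.57 and 1.62 CPM), and 13 counts in deleted 6 (0.294 CPM). All 3 deleted libraries exceeded the wild-type pair, though deleted 6 by few counts. The log2 fold change was 4.24 ± 1.26 (SE; adjusted p = 0.274) across all 5 libraries, and without deleted 6 Il4 rose by 4.77 ± 0.63 (adjusted p = 0.00599). DESeq2 and limma-voom called it across all 5 libraries, at 4.26 ± 1.16 and 4.17 ± 0.80 (adjusted p = 0.00569 and 0.0270).

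Il13, whose protein shares a receptor with IL-4, lies 12.7 kb from Il4 on the same strand (chromosome 11, 53631324 to 53634702) and was barely detected. It had 4 and 5 counts in deleted 2 and 4 and 0 counts in the other 3 libraries. These are 0.0701 CPM (exact Poisson 95% interval 0.0191 to 0.179) and 0.0944 CPM (0.0306 to 0.220), and the upper bounds of the same interval at 0 counts are 0.0889, 0.0664 and 0.0834 CPM in wild-type 1, wild-type 3 and deleted 6. The intervals cover counting error only, and a difference was not detectable at this depth. Il10, an inhibitory cytokine (chromosome 1, 131019845 to 131024974, plus strand), had 5 and 3 counts for the wild-type pair, 0 and 4 in deleted 2 and 4, and 0 in deleted 6. Neither gene passed the filter, and the fit with no filter called neither, with log2 fold changes of 4.55 ± 2.44 for Il13 and -1.65 ± 1.62 for Il10 (SE; edgeR adjusted p = 0.578 and 0.691).

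The upstream sequences of Il6 and Il4, the members called without deleted 6, are shown beside those of Il13, the neighbour of Il4 that was barely detected, and Il1a, which was highest in deleted 6. Each is the 250 bases before the transcription start in RefSeq (GRCm38.p6), read 5′ to 3′ on the gene's strand, with the motifs searched in capitals. The RefSeq table held 8 of the 10 members, and for Il4 the start nearest the GENCODE gene's end was used.
Il6 (chr5:30012864-30013113, plus): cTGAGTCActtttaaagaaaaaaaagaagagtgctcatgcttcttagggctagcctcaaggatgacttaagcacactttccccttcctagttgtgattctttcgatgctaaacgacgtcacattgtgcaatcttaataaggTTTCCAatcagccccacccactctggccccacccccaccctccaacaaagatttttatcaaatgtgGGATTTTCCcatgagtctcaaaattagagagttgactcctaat
Il4 (chr11:53618666-53618915, minus): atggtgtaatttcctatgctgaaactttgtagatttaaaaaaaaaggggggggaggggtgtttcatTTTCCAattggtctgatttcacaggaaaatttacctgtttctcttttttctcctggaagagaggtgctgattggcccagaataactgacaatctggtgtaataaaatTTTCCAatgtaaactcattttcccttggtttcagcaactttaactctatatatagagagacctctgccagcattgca
Il13 (chr11:53634703-53634952, minus): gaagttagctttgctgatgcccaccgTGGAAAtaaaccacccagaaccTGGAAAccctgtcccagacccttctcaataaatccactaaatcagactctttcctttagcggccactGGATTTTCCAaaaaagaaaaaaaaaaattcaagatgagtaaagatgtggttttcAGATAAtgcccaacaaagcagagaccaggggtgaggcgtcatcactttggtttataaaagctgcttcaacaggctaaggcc
Il1a (chr2:129309973-129310222, minus): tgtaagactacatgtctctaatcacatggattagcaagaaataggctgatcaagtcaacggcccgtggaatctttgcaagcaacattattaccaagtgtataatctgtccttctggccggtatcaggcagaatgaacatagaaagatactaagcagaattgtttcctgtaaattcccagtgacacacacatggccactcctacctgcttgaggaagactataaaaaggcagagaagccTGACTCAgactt

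The motifs searched, on both strands, were GGANTTTCC for NF-κB, TGANTCA for AP-1, TGACGTCA for a cyclic AMP element, TTTCCA for NFAT, AGATAA for GATA factors and GAGGAAGT for PU.1. Il6, Il4 and Il13 each held the NFAT letters, at 1, 2 and 3 places, where 18.6% of 32851 promoters of this length hold them. Il1a held no NFAT match in this window and 1 AP-1 match, which starts 12 bases before the gene, and Il6 held an AP-1 match too (6.75% of promoters). Il6 and Il13 each held 1 NF-κB match (1.07% of promoters), and in Il13 it overlaps an NFAT match. Il13 alone of these 4 held the GATA letters (9.99% of promoters). Among the other members in the table, Il1b, Il16 and Tnf each held 1 NFAT match, Il16 also held 1 AP-1 match, and Il18 held none of the 6 motifs. The RefSeq start used for Il16 lies 10187 bases from the GENCODE gene's 5′ end, and that for Il18 127 bases. A match is only a run of letters, and no binding was measured.

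**Figure D3:**
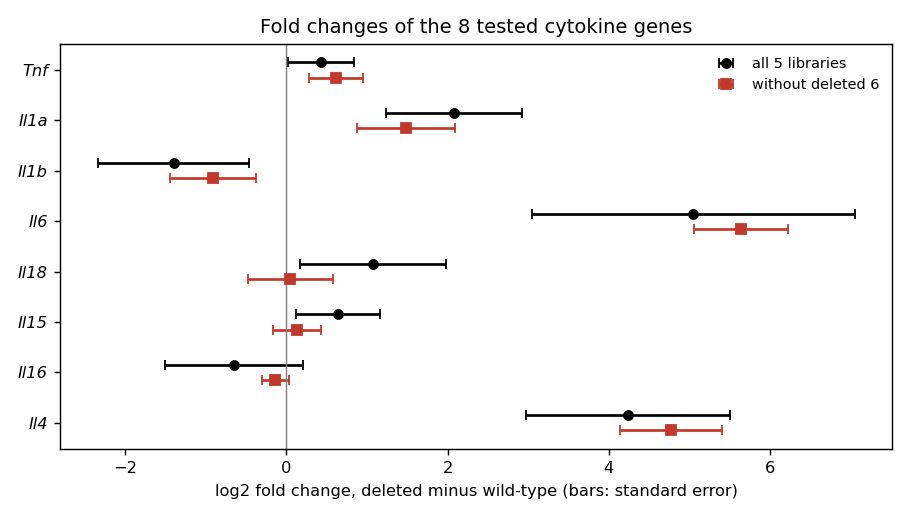
Log2 fold change of the 8 tested cytokine genes, deleted minus wild-type, with its standard error, from all 5 libraries (circles) and without deleted 6 (squares). Leaving out deleted 6 narrows the error of Il6 from 2.00 to 0.58 and moves Il18 from 1.08 to 0.05.

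Il18, an inflammasome cytokine that induces interferon-γ (chromosome 9, 50554827 to 50581840, plus strand), had values of 1.98 and 1.93 CPM for the wild-type pair, 1.03 and 2.98 CPM for deleted 2 and 4, and 8.37 CPM in deleted 6. The wild-type values fell between those of deleted 2 and 4, and deleted 6 alone stood high. Its log2 fold change was 1.08 ± 0.90 (SE; adjusted p = 0.569) and 0.05 ± 0.52 without deleted 6 (adjusted p = 0.965). Il15, a survival factor of natural killer cells (chromosome 8, 82331632 to 82403222, minus strand), had the same order at its top. It was at 7.18 and 9.42 CPM for the wild-type pair, 6.96 and 11.2 CPM for deleted 2 and 4, and 20.9 CPM in deleted 6. The groups overlapped (0.65 ± 0.52, adjusted p = 0.556), and without deleted 6 the value was 0.14 ± 0.30 (adjusted p = 0.825).

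Il16, which encodes the CD4 ligand IL-16 and, from longer transcripts, a PDZ-domain protein (chromosome 7, 83642825 to 83745726, minus strand), was the most abundant member in 4 libraries by CPM. It stood at 71.4 and 93.5 CPM for the wild-type pair, against 78.1 and 70.4 CPM for deleted 2 and 4, and at 8.93 CPM in deleted 6. Deleted 6 alone was low, and the other 4 overlapped. The log2 fold change was -0.65 ± 0.86 (SE; adjusted p = 0.700), and -0.14 ± 0.17 without deleted 6 (adjusted p = 0.657). Il16 shares 1202 exon bases with Stard5 on the opposite strand (33.9 to 71.4 CPM), so some reads of either gene cannot be assigned.

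Receptors for these cytokines were measured in the same cells. In a list of 18 receptor genes, 17 were tested and none was called across all 5 libraries. It had 5 higher and 2 lower by unadjusted p under 0.05, 6 not overlapping above and 2 below, and a median log2 fold change of 0.41. For this and the lists that follow, the shares over all tested genes are 9.44% higher and 5.42% lower by unadjusted p, 22.4% above and 23.7% below, and, without deleted 6, 7.89% called higher and 5.07% lower. Il1r1, the signalling receptor of both IL-1 forms, stood at 1.66 and 3.71 CPM for the wild-type pair, against 24.8, 15.7 and 7.58 CPM in deleted 2, 4 and 6 (2.57 ± 0.68, adjusted p = 0.236). Il1rl1, the receptor of IL-33 and a surface protein of mast cells, was at 0.651 and 1.41 CPM, then 480, 196 and 1.90 CPM. Without deleted 6, 3 receptors rose and none fell: Il1rl1 by 8.33 ± 0.61, Il1r1 by 2.91 ± 0.43 and Cd9, a membrane protein reported to bind IL-16, by 1.71 ± 0.21 (adjusted p = 0.00112, 0.00854 and 0.00430).

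The receptors of IL-6, IL-4 and TNF were expressed in every library. Il6st, the gp130 chain, lay between 87.9 and 154 CPM, and Il6ra, the IL-6 binding chain, was at 24.5 and 25.9 CPM for the wild-type pair, against 16.2, 19.7 and 14.5 CPM for the deleted ones. Il4ra was at 326 and 264 CPM, then 305, 218 and 164 CPM. Tnfrsf1a, the first TNF receptor, lay between 112 and 138 CPM. Tnfrsf1b, the second, was at 212 and 245 CPM, then 260, 456 and 1084 CPM, with every deleted library above both wild-type ones (1.39 ± 0.65, adjusted p = 0.377). Cd4, the receptor of IL-16, had 7 to 13 counts in every library, and Il2rb, a chain of the IL-15 receptor, had at most 8. Receptors other than Il1r1 and Il1rl1, and below Il1r2, Casp1, Stat6, Socs3, Rad50, Lta and the genes called only without deleted 6, were chosen after their values were seen.

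Secreted antagonists differed among themselves. Il1rn, the IL-1 receptor antagonist, stood at 78.0 and 53.3 CPM for the wild-type pair, against 128, 181 and 448 CPM in deleted 2, 4 and 6, the same order as Il1a there. Its log2 fold change was 1.94 ± 0.63 (SE; adjusted p = 0.286), and without deleted 6 it rose by 1.25 ± 0.24 (adjusted p = 0.0216). Il18bp, which traps IL-18, was at 3.76 and 4.94 CPM, then 4.80, 8.25 and 7.17 CPM (adjusted p = 0.457). The decoy receptor Il1r2 was at 37.2 and 49.8 CPM, then 31.3, 23.6 and 1.13 CPM. Of the 5 listed antagonists 4 were tested, with 1 higher and 0 lower by unadjusted p under 0.05 and a median of -0.04.

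Genes that process cytokines come next in the pathway. None of 12 inflammasome and processing genes was called across all 5 libraries, and at an unadjusted p under 0.05 there were 0 higher and 3 lower (median 0.03). Nlrc4, an inflammasome gene, was at 16.8 and 21.6 CPM for the wild-type pair, against 7.55, 12.9 and 9.14 CPM for the deleted ones (-0.96 ± 0.32, adjusted p = 0.289). Gsdmd, the pore protein that releases IL-1β, was at 97.99 and 117 CPM, then 65.2, 70.9 and 83.1 CPM, and fell by 0.65 ± 0.15 without deleted 6 (adjusted p = 0.0343). Mefv, which encodes pyrin, fell by 3.24 ± 0.41 in that fit (adjusted p = 0.00485). Casp1, which cuts the precursors of IL-1β and IL-18, lay between 60.3 and 119 CPM.

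Of 10 genes that control cytokine messages none was called, with 2 higher and 0 lower by unadjusted p under 0.05 (median -0.30). In every deleted library 2 of the 10 lay above both wild-type libraries and 5 lay below (22.4% and 23.7% of all genes). Rc3h1, which encodes roquin, stood at 32.5 and 33.97 CPM for the wild-type pair, against 46.6, 59.2 and 53.1 CPM for the deleted ones (0.67 ± 0.19, adjusted p = 0.256; 0.68 ± 0.17 and 0.0436 without deleted 6). Zc3h12a, the RNase regnase-1 that degrades Il6 messages, was at 8.77 and 7.64 CPM, then 11.3, 20.1 and 17.2 CPM (0.98 ± 0.33, adjusted p = 0.295).

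Of 15 NF-κB feedback and adaptor genes none was called, with 2 higher and 0 lower by unadjusted p under 0.05, 4 not overlapping each way, and a median of 0.12. Tnfaip3, the A20 enzyme that ends NF-κB signals, was at 19.0 and 26.2 CPM for the wild-type pair, against 50.1, 56.6 and 43.8 CPM for the deleted ones (1.15 ± 0.24, adjusted p = 0.182), and rose by 1.25 ± 0.19 without deleted 6 (adjusted p = 0.0106). Its partner Tnip1 was at 53.3 and 54.6 CPM, then 68.9, 101 and 154 CPM (1.01 ± 0.37, adjusted p = 0.319).

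Of the genes that IL-4 and IL-13 are known to induce, most of those tested had higher values in deleted 2 and 4. Of 10 listed genes 8 were tested, and none was called across all 5 libraries, with 3 higher and 0 lower by unadjusted p under 0.05 and a median of 1.91. Retnla and Ccl17 were not tested, with at most 7 and 9 counts in any library, deleted 2 and 4 included. Mrc1, the mannose receptor of macrophages, stood at 18.3 and 41.5 CPM for the wild-type pair, against 211, 424 and 219 CPM for the deleted ones (3.25 ± 0.57, adjusted p = 0.150). Arg1, arginase, had 12 and 17 counts in wild-type (0.289 and 0.306 CPM) and was at 17.1, 10.04 and 2.69 CPM in deleted 2, 4 and 6 (5.05 ± 0.98, adjusted p = 0.167). Without deleted 6, edgeR called 6 of the 8 higher and 0 lower, Arg1, Mrc1, Chil3, Ccl24, Clec10a and Cish, where 7.89% of all genes were called higher. Ccl24 had 7 and 17 counts in the wild-type pair and passed the filter through deleted 2 and 4, where it is high. The share called therefore carries no weight. In deleted 6 itself, Chil3 was at 4.05 CPM, below the wild-type pair at 128 and 176 CPM, and Ccl24 had 0 counts. Stat6 itself, the factor that both cytokines act through, was at 273 and 301 CPM, then 297, 352 and 558 CPM (adjusted p = 0.501).

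Genes that IL-6 and IL-10 induce through STAT3 were measured too. None of 8 was called with or without deleted 6, and the medians were -0.18 and 0.06. At an unadjusted p under 0.05 there was 1 higher across all 5 libraries, Etv3, a repressor of macrophage growth, at 31.4 and 44.1 CPM for the wild-type pair, against 52.0, 62.1 and 91.0 CPM for the deleted ones (0.86 ± 0.32, adjusted p = 0.322). Pim1, a survival kinase, was at 21.7 and 15.2 CPM, then 15.8, 10.6 and 10.4 CPM. Socs3, the feedback inhibitor of IL-6 signals, was at 43.7 and 26.1 CPM in wild-type, at 43.6 and 52.0 CPM for deleted 2 and 4, where Il6 was high, and at 28.8 CPM in deleted 6 (0.25 ± 0.36, adjusted p = 0.726).

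**Figure D4:**
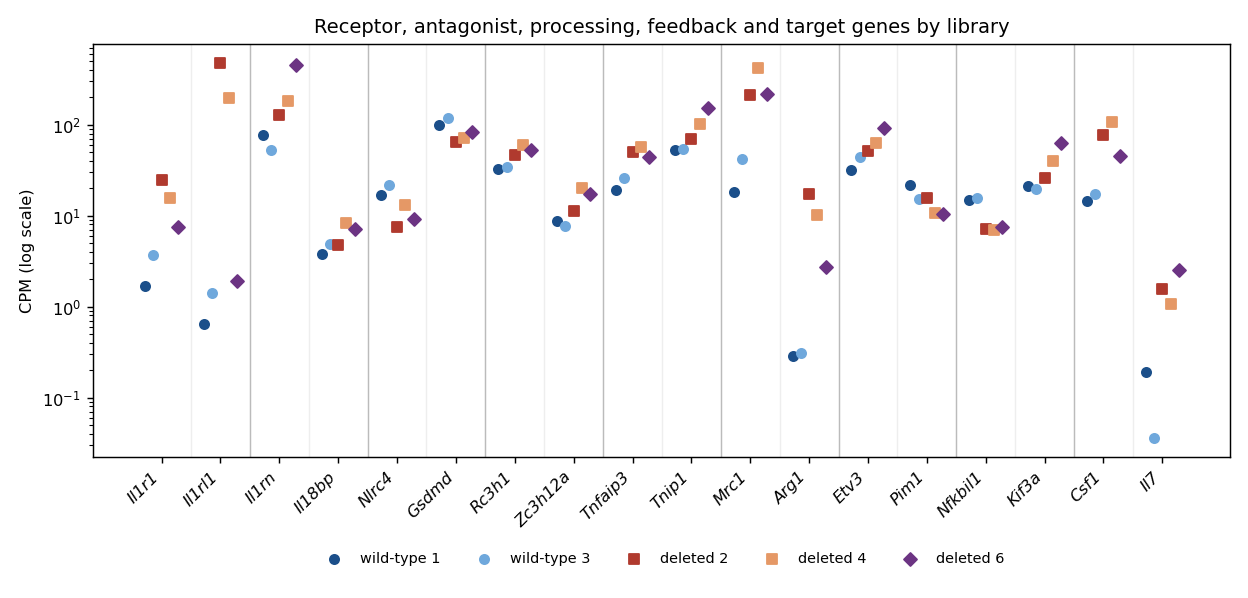
CPM on a log scale of the 2 genes with the smallest unadjusted p in each of 9 pathway lists, 1 point per library (circles wild-type, squares deleted 2 and 4, diamonds deleted 6); darker vertical lines part the lists. Arg1 and Il1rl1 are high in deleted 2 and 4, at 17.1 and 10.04 CPM and at 480 and 196 CPM, while Il1rn is highest in deleted 6, at 448 CPM.

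Neighbours of the cytokine genes on the chromosome were measured as well. Near Il4 and Il13, Kif3a, a kinesin motor, was at 21.4 and 19.4 CPM for the wild-type pair, against 26.2, 39.8 and 62.3 CPM in deleted 2, 4 and 6 (1.07 ± 0.40, adjusted p = 0.323). Rad50, a DNA repair gene, was at 77.2 and 102 CPM, then 104, 82.2 and 56.6 CPM (adjusted p = 0.807), and Il5 had at most 1 count. Nfkbil1, near Tnf, was at 14.7 and 15.6 CPM, then 7.18, 7.02 and 7.55 CPM, and fell by 1.08 ± 0.20 without deleted 6 (adjusted p = 0.0172). Lta, the lymphotoxin beside Tnf, had at most 6 counts. Of 16 listed neighbours 14 were found by symbol and 7 were tested, with 1 higher and 1 lower by unadjusted p under 0.05 and a median of -0.59. In every deleted library 1 of the 7 lay above both wild-type libraries and 4 lay below (22.4% and 23.7% of all genes).

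Other cytokines gave a mixed picture. Of 28 listed, 15 were tested, with 4 higher and 3 lower by unadjusted p under 0.05 and none called (median -0.38). Csf1, the macrophage growth factor, was at 14.7 and 17.3 CPM for the wild-type pair, against 77.8, 108 and 45.8 CPM for the deleted ones (2.27 ± 0.42, adjusted p = 0.160), and rose by 2.55 ± 0.21 without deleted 6 (adjusted p = 0.00136). Il7 had 8 and 2 counts in wild-type and 90, 57 and 112 in deleted 2, 4 and 6 (3.94 ± 0.90, adjusted p = 0.201). The interleukins Il3, Il9, Il17a, Il21 and Il22 and interferon-γ, Ifng, had 0 counts in all 5 libraries. Without deleted 6, 5 of the 15 were called higher (7.89% of all genes) and 1 lower (5.07%), Il12a, a subunit of IL-12, which fell by 3.09 ± 0.23 (adjusted p = 0.00112). Il7, and Il2 with 3 and 5 counts in wild-type, passed the filter through the deleted libraries, where they are higher. Il33, with 11 and 22 counts in wild-type, passed through the wild-type pair, where it is higher. The shares of this list therefore carry no weight.

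Marker genes of the cell types that make these cytokines moved between libraries too. The 13 mast cell and basophil markers summed to 126 and 200.5 CPM in wild-type 1 and 3, to 11630 and 5335 CPM for deleted 2 and 4, and to 38.8 CPM in deleted 6. None of the 13 was at 0 throughout, and 3 lay above both wild-type libraries in every deleted library, which is near the 22.4% of all genes. Without deleted 6 all 13 were called higher (7.89% of all genes). Among them, Mrgprb2 had 0 counts and Mcpt4 5 and 8 counts in the wild-type pair. Both passed the filter only through deleted 2 and 4, where they are high. Without deleted 6, Tpsab1, with 6 and 31 counts in the wild-type pair, also passed through deleted 2 and 4. The share called therefore carries no weight. Cpa3, a mast cell protease, made up 51.3% of the sum in deleted 2 and 44.2% in deleted 4. Deleted 2 exceeded deleted 4 by 2.20-fold for Il4, 2.63-fold for Il6 and 2.18-fold for the marker sum. The single markers ran from 0.655-fold (Mrgprb2) to 2.53-fold (Cpa3) with a median of 1.91, and 6 of 13 were at 2 or more, among them Kit, which is also in the stem cell list. The median over all tested genes was 1.00, and 5.48% had a ratio of at least 2. The part of mast cell content in the Il4 and Il6 values was not tested, and in bulk RNA fewer cells of a type and less RNA per cell cannot be told apart.

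T cells are another known source of Il4, and their Cd3 and Trac transcripts were at or near 0. Of 10 T and natural killer cell markers, Cd3e, Cd3g and Ncr1 had 0 counts in all 5 libraries, Cd3d had at most 2 and Trac at most 6. The list summed to 6.00 and 4.92 CPM for the wild-type pair, against 9.41, 8.12 and 5.38 CPM for the deleted ones, nearly all from Lck, Thy1 and Gata3, the 3 of the list that passed the filter. Gata3 stood at 0.145 and 0.018 CPM, then 2.52, 1.64 and 1.90 CPM. Thy1 was at 1.64 and 0.414 CPM, then 3.43, 3.76 and 0.0452 CPM. Gata3 lay above and Lck below the wild-type pair in every deleted library. Without deleted 6, Gata3 alone was called, as higher, but only the deleted libraries carried it past the filter. The 12 monocyte and macrophage markers summed to 12400 and 11970 CPM in wild-type, 9104 and 18970 CPM for deleted 2 and 4, and 73820 CPM in deleted 6, which also held the most Il1a, Il15 and Il18. Lyz2, lysozyme, made up 92.3% of that sum in deleted 6. Of the 12 markers 5 were highest in deleted 6 and 4 were lowest there, among the latter Ly6c2, Ccr2 and Cx3cr1 of monocytes at 5.45, 37.7 and 0.317 CPM. None of these 12 was at 0, and 1 lay above and 4 below both wild-type libraries in every deleted library. The 11 neutrophil granule markers summed to 18990 and 20620 CPM, then 14990, 17050 and 1391 CPM, lowest in deleted 6, as were Il1b and Il16, and 10 of the 11 were lowest there. None was at 0, and 1 lay above and 6 below. The 6 eosinophil markers summed to 12.8 and 50.2 CPM, then 22.9, 27.2 and 4.73 CPM, and the 8 B cell markers to 16.8 and 21.9 CPM, then 4.54, 7.27 and 0.498 CPM. The 10 stem and progenitor markers summed to 451 and 455 CPM, then 1166, 785 and 262 CPM. Kit made up 57.6% of that sum in deleted 2 and 38.8% in deleted 4. Of the 10, 3 lay above and 3 below (22.4% and 23.7% of all genes), the latter Meis1, Hoxa9 and Mecom. Hoxa9 was at 145 and 128 CPM, then 0.841, 1.66 and 0.0678 CPM. Without deleted 6, 5 were called higher and 3 lower (7.89% and 5.07% of all genes). Slamf1, with 2 and 1 counts in the wild-type pair, is among the genes above and those called higher. It passed the filter only through deleted 2 and 4, where it is high, so these shares carry no weight. The part of these lists in the cytokine values was not tested.

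**Figure D5:**
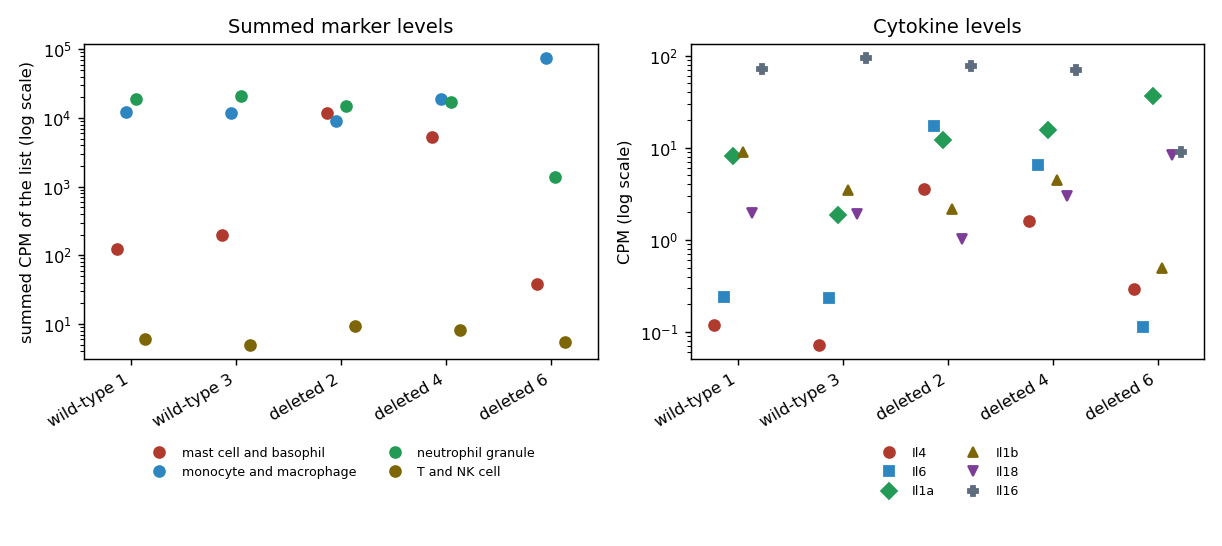
Left, summed CPM of 4 marker lists in each library; right, CPM of 6 cytokine genes; both axes are logarithmic and points are shifted sideways only to keep them apart. The mast cell sum (126 and 200.5 CPM, then 11630, 5335 and 38.8 CPM) and Il4 and Il6 are high in deleted 2 and 4, and the monocyte and macrophage sum (73820 CPM, of which Lyz2 is 92.3%) and Il1a are highest in deleted 6.

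The genes with the pattern most like that of a member were found by the root mean square difference of log2 CPM, with a prior count of 2 and centred on each gene's mean, over the 5 libraries. Nearest to Il6 were Slc14a1, a urea transporter, at a difference of 0.19, Cybrd1, an iron reductase, at 0.33, and Gzmb, granzyme B, at 0.37. Gzmb stood at 2.58 and 4.29 CPM for the wild-type pair, against 170, 60.3 and 1.06 CPM in deleted 2, 4 and 6. Nearest to Il4 were Akr1c12, Ptger3, a prostaglandin E2 receptor, and Hgfac, at 0.19, 0.26 and 0.29. Ptger3 was at 2.02 and 2.18 CPM, then 53.1, 23.9 and 6.65 CPM. Nearest to Il1a were Zfp652os, Micalcl and Serpinb2, at 0.22, 0.22 and 0.23. Serpinb2, the plasminogen activator inhibitor of macrophages, was at 8.22 and 2.86 CPM, then 17.4, 23.8 and 44.8 CPM, so it differed between the wild-type libraries as Il1a did. Nearest to Il1b were Rpsa-ps9, Naaladl1 and Adgrf3, all under 1 CPM in every library. Within a difference of 0.5 there were 9 genes for Il6, 22 for Il4, 63 for Il1a and 54 for Il1b.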

How the data were processed

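RNA was made into unstranded libraries with SMART-Seq v4 and Nextera XT, per the labels' protocols. The submitters' processing notes name bcl2fastq 1.8.4, STAR, DESeq2 1.12.4 and mm10. No annotation or counting setting was given in the sources used here. As deposited by the authors, the files hold read counts for 46603 genes per library, a normalized signal for 27526 genes that equals those counts over 1 size factor per library (largest deviation 4.3e-09), and values on a log2 scale from the authors, not used for tests. Rows that name no gene (23.7% to 30.1% of reads) were left out.

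Genes passing edgeR's filterByExpr (16120, with 8 of the 10 members) were scaled by TMM and tested with glmQLFTest on genotype over all 5 libraries (edgeR 4.0.16, limma 3.58.1, DESeq2 1.42.0, R 4.3.3), with Benjamini-Hochberg adjustment over all genes and a call at 0.05. A standard error is the fold change over the square root of F. CPM use the scaled library size, in which 3 counts are 0.0526 to 0.0723 CPM. Levels per kb use the union of GENCODE M21 exons. Pathway and marker lists were counted, with no set test. Named from each pathway list were the 2 genes with the smallest p when none was called, and nearest patterns cover the 4 members with the widest range. Members and lists were chosen with earlier results of these data known. On simulated counts, a log2 change of 4 was called in 59.3% of the altered genes over all 5 libraries (16120 genes) and in 94.7% without deleted 6 (15787 genes). Changes of 2 were called in 11% and 75%, with 3.33 and 17 unchanged genes called per draw. Without deleted 6 those unchanged genes were a larger share of all calls than the 0.05 aimed at. Alternatives were other tests, scalings and filters, each library left out, and lane 4 alone.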

Additional observations from a re-analysis of the deposited data

How the results depend on the processing

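With the main filter, over all 5 libraries and with single libraries left out, edgeR called 0 to 2045 genes, 0 to 2 members (Il4 and Il6) and 0 to 21 of the pathway genes. Among these fits every non-zero count comes from leaving out deleted 6. Outside that setting, DESeq2 called 1419 genes, 2 members and 14 pathway genes, limma-voom with sample weights 2177, 1 and 20, lane 4 alone 342, 1 and 5, and edgeR with no filter on low counts 278 genes and 3 pathway genes. Fits added after the data were seen, without deleted 6, gave 2925, 2 and 31 with DESeq2 (10.9% of genes higher and 7.66% lower) and 1976, 2 and 19 with limma-voom (7.53% and 4.99%). The cause of these differences between tests was not tested. Members whose groups did not overlap numbered 2 of 8 (46.1% of all genes), with 1 of 7 under the stricter filter, which drops Il4 (50.3%), 5 of 8 in lane 4 alone (79.6%), and 3 to 5 of 8 with a library left out (53.1% to 61.9%), where fewer libraries are compared. The log2 fold changes of Il4 and Il6 stayed positive in every setting that tested them, from 3.31 to 5.14 and from 3.80 to 5.66. Signs turned for Tnf without deleted 4 (-0.0099, the lowest with a library left out, against 0.6169 at most), for Il15 in lane 4 alone (-0.0466) and for Il18 with limma-voom and deleted 6 left out (-0.156), each far from a call. Scaling by RLE in place of TMM changed no call or direction of a member. No paired analysis was possible because the groups share no replicate number. Depth limits Il10 and Il13, which had at most 5 counts in a library.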
